A study of Homo sapiens with 12 samples.

Results

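The 32 genes described here make cholesterol and fatty acids or control their synthesis, and they were followed by RNA sequencing in T24, a human cell line established from a bladder carcinoma. They were taken as a list of gene symbols, and all 32 were found among the 60504 genes of the deposited tables. Of the 32 members, 8 act in the acetyl-CoA and mevalonate steps, 11 in the steps from squalene to cholesterol, 4 in the control and transfer of sterols, 4 in fatty acid synthesis, 4 in fatty acid elongation and desaturation, and 1 in glycerolipid synthesis. Under the U11 knockout label, the desaturase genes SCD, FADS1 and FADS2 and the sterol reductase genes TM7SF2 and DHCR7 were called lower by the unadjusted P. Of all genes, 3.15% were called lower. The limma adjusted P ran from 0.0217 for FADS2 to 0.0516 for FADS1, and none was under 0.05 with the replicate number as a block. The sterol transfer gene STARD4 was called higher by the unadjusted P (limma adjusted P = 0.127). In the overexpression comparison as a whole no member was called, against 1.93% of all genes. The elongase gene ELOVL6 was called higher by the unadjusted P in 2 of the 3 line labels (limma adjusted P = 0.0526 and 0.0805).

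The series asked how the level of U11, a small nuclear RNA of the minor spliceosome, bears on gene expression in these cells. Its knockout arm consists of 2 libraries labelled U11 knockout, set against 2 libraries of untreated T24 cells. Per the study's methods, the knockout line was made with CRISPR guides on a Cas9 plasmid and grown from a single clone. Its overexpression arm consists of 6 libraries, 2 for each of the line labels 79, 86 and 87, set against 2 other libraries of untreated T24 cells. Per the methods, overexpressing cells were made by stable transfection of a U11 plasmid and clonal selection, and what the line labels stand for is not given in the sources used here. All 12 libraries share the T24 background, and the labels give the controls as untreated. The methods name a guide vector as the control of the knockout transfection, and whether these libraries are that control is not given. Nothing in the labels says that libraries of a group came from separate cultures, so the P values measure the spread between these libraries, which may be technical. Values of a group are given below in the order of the replicate numbers. The titles of the 2 overexpression controls give no such numbers, so theirs were set in the order of the samples.

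Cholesterol is built from acetyl-CoA through mevalonate, isoprenoid units and squalene, which is closed to lanosterol and trimmed in many steps to cholesterol. Fatty acids are built from the same acetyl-CoA by acetyl-CoA carboxylase and fatty acid synthase, then lengthened by elongases and given double bonds by desaturases. Most of these genes are known targets of the sterol regulatory element binding proteins (SREBPs), membrane-bound transcription factors encoded by SREBF1 and SREBF2. SREBPs are held in the endoplasmic reticulum by INSIG proteins when sterols are plentiful, and are released to the nucleus when sterols run low. Tumour cells often keep this programme active, and the desaturase SCD supplies them with monounsaturated fatty acids.

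TPM is the transcript abundance per length, scaled to the same total in every library. U11 (RNU11, 2 entries summed) stood at 21.4 to 23.8 TPM in the controls of the knockout comparison and at 31.6 to 37.4 TPM under the knockout label. The higher TPM is opposite to what the label states, so a knockout is named below only as a label. Each direction given for these libraries rests on that label. The labels give polyA RNA and the methods rRNA depletion, and how well these libraries measure a small nuclear RNA was not tested. Among the overexpression libraries and their controls, U11 lay between 0.0334 and 0.623 TPM in the controls, 0.183 and 0.412 TPM in line label 79, 3.72 and 3.98 TPM in line label 86, and 53.6 and 61.9 TPM in line label 87. The 10 most abundant genes held 45.5% to 49.6% of all TPM in the 4 libraries of the knockout arm and 7.1% to 7.6% in the 8 of the overexpression arm, so members' levels were not compared between them. Coverage and FPKM gave 9.072 to 15.33 gigabases of aligned sequence behind each library. Of the markers for other cell types, all 4 uroplakin genes and all 3 adipocyte genes lay under 1 TPM in every library. The 3 keratin genes summed to at least 1727 TPM in every library. The 2 mesenchymal marker genes summed to 1360 to 2358 TPM in the knockout arm and to 2115 to 3048 TPM in the overexpression arm. Blood markers summed to at most 1.84 TPM. Of the 3 endothelial markers, PECAM1 and VWF lay under 1 TPM throughout and CDH5 reached 34.1 TPM, and its part in any result was not tested.

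Promoter windows of 250 bases before the annotated start were found in RefSeq (GRCh38.p14) for 28 of the 32 members, 40 windows in all. ACAT2, FASN, FDFT1 and SQLE had no entry. Windows were searched on both strands for 4 motifs, counted independently of one another. The sterol regulatory element ATCACCCC was in 1 of the 40 windows (2.5%), that of SREBF2, and in 0.604% of the 35116 windows of all genes. The CCAAT box (CCAAT), the site of NF-Y, was in 24 windows (60%) of 20 members and in 32% of all windows. The GC box (GGGCGG) was in 35 windows (87.5%) and in 42.6% of all windows, and the E-box (CACGTG) in 3 windows (7.5%) and 6.34%. These are matches to letters, not measured binding. The windows of SREBF2, SCD and STARD4 are shown because they hold the exact sterol element and the CCAAT boxes of SCD, whose log2 fold change under the knockout label was the lowest of the members, and of STARD4, the 1 member called higher. Capitals mark ATCACCCC and CCAAT or, where the match is on the other strand, its complement ATTGG.
SREBF2, chr22:41832855-41833104, plus strand: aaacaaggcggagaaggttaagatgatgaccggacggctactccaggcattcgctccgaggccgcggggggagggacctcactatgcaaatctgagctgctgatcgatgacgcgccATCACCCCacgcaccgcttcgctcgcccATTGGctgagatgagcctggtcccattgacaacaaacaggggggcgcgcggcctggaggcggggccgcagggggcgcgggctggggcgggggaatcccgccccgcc
SCD, chr10:100346983-100347232, plus strand: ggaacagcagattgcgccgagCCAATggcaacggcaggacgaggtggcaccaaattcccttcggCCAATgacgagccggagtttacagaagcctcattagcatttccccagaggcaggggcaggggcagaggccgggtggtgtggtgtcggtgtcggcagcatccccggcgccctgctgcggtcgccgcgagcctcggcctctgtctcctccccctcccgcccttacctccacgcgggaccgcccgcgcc
STARD4, chr5:111512536-111512785, minus strand: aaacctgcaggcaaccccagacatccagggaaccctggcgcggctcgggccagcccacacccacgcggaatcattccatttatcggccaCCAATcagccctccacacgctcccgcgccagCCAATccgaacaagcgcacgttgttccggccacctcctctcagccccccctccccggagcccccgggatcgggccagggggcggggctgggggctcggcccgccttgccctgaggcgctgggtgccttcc
The SCD and STARD4 windows each hold 2 CCAAT boxes, while the FADS1 window and both FADS2 windows hold none. Of the 5 members called lower under the knockout label, SCD, TM7SF2 and DHCR7 thus hold the CCAAT letters in a window, and FADS1 and FADS2 do not. The deposited tables begin SCD, SREBF2 and STARD4 inside their RefSeq windows, at 100347124, 41833079 and, on the minus strand, 111512590. On chromosome 11 they begin FADS2 at 61792980 and, on the minus strand, FADS1 at 61829318. The FADS1 window (61817004 to 61817253) and 1 of the 2 FADS2 windows (61815953 to 61816202) lie inside these genes, away from those starts.

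All 32 members were measured above the filter in both comparisons (1 TPM or more in at least 2 libraries). On the TPM scale, group means of the members ran from 3.59 TPM for TM7SF2 to 135 TPM for ACLY in the knockout controls, with a median of 22.2 TPM. In the overexpression controls they ran from 4.62 TPM for TM7SF2 to 282 TPM for ACLY, with a median of 43.4 TPM. The lowest and the highest member were thus the same genes in both sets of controls. ACLY, which cleaves citrate to acetyl-CoA, was followed by FDPS, the farnesyl diphosphate synthase, at 112 TPM in the knockout controls and 215 TPM in the overexpression controls.

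The knockout comparison asked which members differed between the libraries labelled U11 knockout and their controls. A member was called when limma gave P under 0.05 before adjustment and the fold change reached 1.5 on the log2(TPM + 1) scale. Of the 32 members, 6 were called, against 11.8% of the 14356 genes tested. Of these, 5 were lower, where 3.15% of all genes were called lower, and 1 was higher, where 8.61% were called higher. At an adjusted P under 0.05 (Benjamini-Hochberg over all genes tested), 4 members remained, all lower, against 7.82% of all genes. An unadjusted P under 0.05 was reached by 12 members, against 30.1% of all genes. The median log2 fold change of the members was 0.02 and that of all genes was 0.11. With median ratio scaling, which moved the median of all genes to 0.01, 7 members were called, against 10.3% of all genes, and the median of the members was -0.08. Of these 7 members, 6 were lower, against 4.69% of all genes, and 1 was higher, against 5.64%, so the background of lower and higher calls depended on the scaling. At an adjusted P under 0.05, 7 members passed with that scaling (6 lower and 1 higher), against 9.92% of all genes. They were SCD, FADS1, FADS2, TM7SF2, DHCR7 and SREBF1, all lower, and MSMO1, higher (0.43, limma adjusted P = 0.0480). The groups did not overlap for 19 of the 32 members (9 higher and 10 lower), against 60.2% of all genes (39.9% higher and 20.4% lower), so the number of separated members is near the background.

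**Figure D1:**
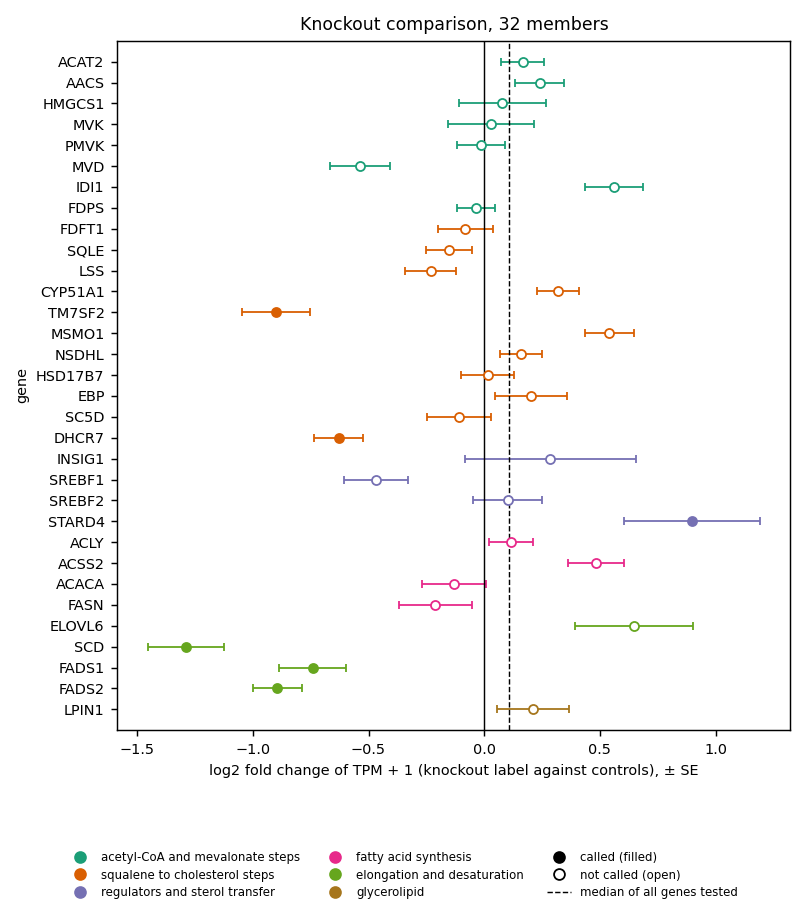
Log2 fold change of TPM + 1 (horizontal axis) for each of the 32 members (vertical axis, colours by step), libraries labelled U11 knockout against controls, with bars of 1 standard error. Filled points are the 6 called members, and the dashed line is the median of all genes tested (0.11). SCD, FADS1, FADS2, TM7SF2 and DHCR7 lie left of zero and STARD4 right of it.

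Of the 4 elongation and desaturation genes, 3 were called, all lower. SCD, the stearoyl-CoA desaturase that puts the first double bond into saturated fatty acids, had 78.6 and 79.5 TPM in the controls, against 37.1 and 27.2 TPM under the knockout label. Both labelled libraries lay far below both controls. The means were 79.0 ± 0.626 TPM and 32.1 ± 7.02 TPM (SD, n = 2 each), a ratio of 0.406. The log2 fold change was -1.29 (SE 0.16, limma adjusted P = 0.0236). FADS2, a desaturase of polyunsaturated fatty acids, had 17.1 and 17.4 TPM in the controls, against 9.02 and 8.62 TPM under the knockout label. Its libraries were close within each group, and the log2 fold change was -0.89 (SE 0.11, limma adjusted P = 0.0217). FADS1, the neighbouring desaturase of the same pathway, had 81.0 and 69.2 TPM in the controls, against 49.3 and 39.9 TPM under the knockout label. The groups did not overlap, and the log2 fold change was -0.74 (SE 0.15, limma adjusted P = 0.0516). ELOVL6, the elongase that makes the main substrate of SCD, went the other way and was not called. It had 4.36 and 6.03 TPM in the controls, against 10.8 and 6.80 TPM under the knockout label, with a log2 fold change of 0.65 (SE 0.26, limma adjusted P = 0.173). Summed over the 4 genes, elongation and desaturation stood at 177 ± 6.34 TPM in the controls and 94.3 ± 16.8 TPM under the label, a ratio of 0.534. These are bulk RNA levels, in which fewer expressing cells and less RNA per cell cannot be told apart.

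FADS1 and FADS2 lie on opposite strands of chromosome 11 in the deposited hg38 tables, from 61799625 to 61829318 and from 61792980 to 61867354, so the FADS1 interval falls within that of FADS2. The FADS2 interval also covers FEN1, a flap endonuclease gene on the same strand, which stood at 112 TPM in the controls and 72.1 TPM under the knockout label. FEN1 had a log2 fold change of -0.62 (SE 0.09, limma adjusted P = 0.0280). The strand setting of the authors' counting is not given in the sources used here, and the part of shared reads in the values of these genes was not tested.

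**Figure D2:**
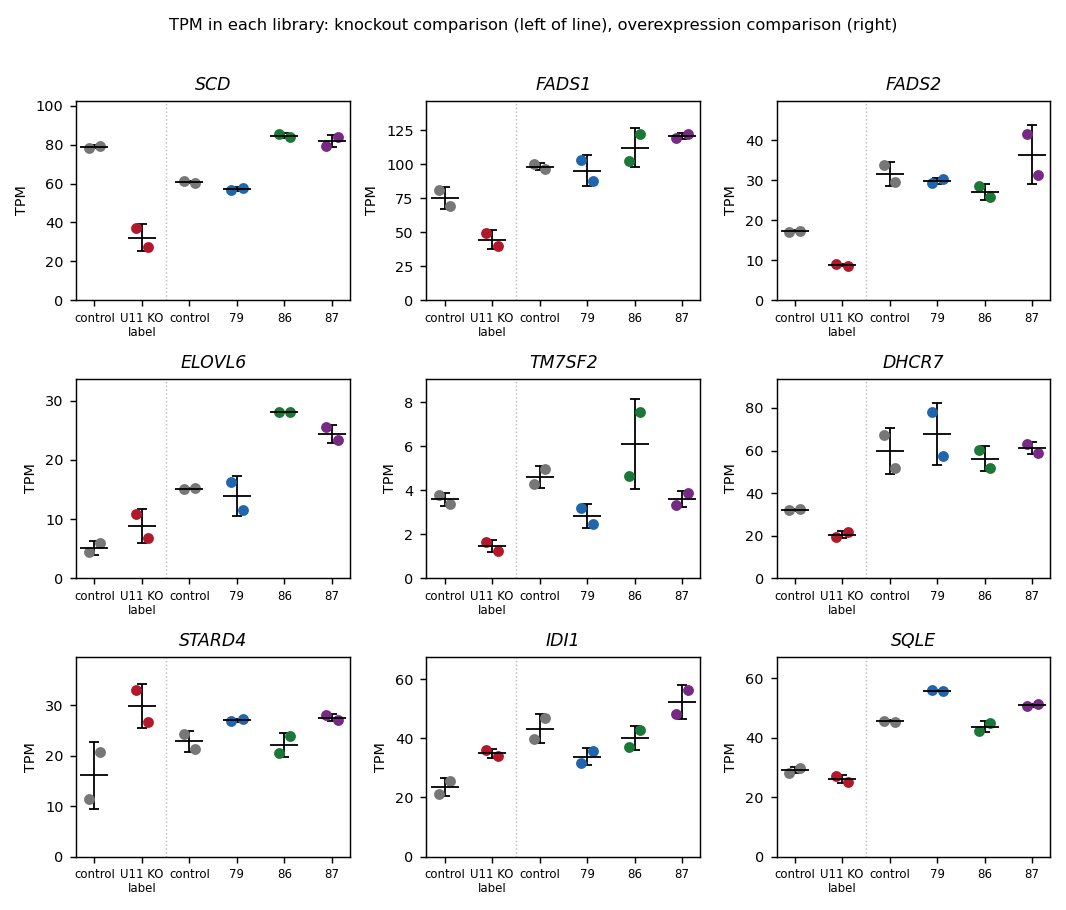
TPM (vertical axes) of 9 members in each of the 12 libraries, with the group mean and SD as a dash and bars (n = 2 per group). The dotted line separates the knockout comparison (controls and U11 knockout label) from the overexpression comparison (controls and line labels 79, 86 and 87), whose levels are not comparable. SCD, FADS1, FADS2, TM7SF2 and DHCR7 are lower in both labelled knockout libraries than in their controls, and ELOVL6 and SCD are higher in line labels 86 and 87 than in theirs.

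In the steps from squalene to cholesterol, 2 of the 11 genes were called, both lower. TM7SF2, a sterol reductase of the step after lanosterol demethylation, had 3.79 and 3.38 TPM in the controls, against 1.66 and 1.26 TPM under the knockout label. The log2 fold change was -0.90 (SE 0.15, limma adjusted P = 0.0369). At this low level the added pseudocount of 1 understates the change, which was a ratio of 0.408 in TPM. The end of TM7SF2's upstream neighbour VPS51 overlaps its start on the same strand, and VPS51 had a log2 fold change of -0.47 (SE 0.15, limma adjusted P = 0.121). DHCR7, the reductase of the last step to cholesterol, had 31.9 and 32.4 TPM in the controls, against 19.4 and 21.6 TPM under the knockout label. The log2 fold change was -0.63 (SE 0.11, limma adjusted P = 0.0393). An expressed gene, RP11-660L16.2, overlaps DHCR7 on the opposite strand, and the part of shared reads in the DHCR7 values was not tested.

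The other 9 genes from squalene to cholesterol were not called and had values in both directions. SQLE, the squalene epoxidase that catalyses a rate-limiting step, had 28.2 and 29.7 TPM in the controls, against 26.9 and 25.1 TPM under the knockout label. FDFT1, which makes squalene, stood at 34.6 and 35.7 TPM and at 36.1 and 30.5 TPM, and its groups overlapped. MSMO1, a sterol demethylase, had values of 20.2 and 21.1 TPM against 32.03 and 29.0 TPM, with a log2 fold change of 0.54 (SE 0.11, limma adjusted P = 0.0502). CYP51A1, the lanosterol demethylase, had 43.4 and 43.2 TPM against 56.1 and 52.6 TPM, with a log2 fold change of 0.32 (SE 0.09, limma adjusted P = 0.0990). MSMO1 and CYP51A1 thus lay above both controls in both labelled libraries, at fold changes under 1.5. The 11 genes summed to 264 ± 5.09 TPM in the controls and 269 ± 10.7 TPM under the label, a ratio of 1.02.

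None of the 8 genes of the acetyl-CoA and mevalonate steps was called, and their summed TPM differed by a ratio of 1.03. ACAT2, the thiolase that starts the pathway, had 41.1 and 39.4 TPM in the controls, against 46.7 and 43.8 TPM under the knockout label. HMGCS1, the synthase of the next step, stood at 19.8 and 15.2 TPM and at 20.8 and 16.2 TPM. The 2 groups of HMGCS1 overlapped. IDI1, the isopentenyl diphosphate isomerase, had 21.3 and 25.6 TPM in the controls, against 35.9 and 33.9 TPM under the label, with a log2 fold change of 0.56 (SE 0.13, limma adjusted P = 0.0660). MVD, the mevalonate diphosphate decarboxylase, had a log2 fold change of -0.54 (SE 0.13, limma adjusted P = 0.0749), and -0.65 with median ratio scaling, where it was called. Consecutive enzymes MVD and IDI1 thus had opposite signs, and neither passed the fold change threshold on the deposited scale.

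Among the regulators, STARD4 was called and the transcription factors were not. STARD4, a carrier that moves cholesterol between membranes, had 11.4 and 20.8 TPM in the controls, against 33.0 and 26.7 TPM under the knockout label. The log2 fold change was 0.90 (SE 0.29, limma adjusted P = 0.127). Its 2 controls differed more from each other than the 2 labelled libraries did. Without control replicate 1 the log2 fold change was 0.49 and STARD4 was no longer called, and it was also not called without either labelled library (0.75 and 1.05) or without a filter on low values (unadjusted P = 0.1001, limma). SREBF1 had 21.7 and 21.3 TPM in the controls, against 17.0 and 13.7 TPM under the label, with a log2 fold change of -0.47 (SE 0.14, limma adjusted P = 0.106). With median ratio scaling that value was -0.58 (limma adjusted P = 0.0462). SREBF2 had 22.9 and 22.9 TPM in the controls, against 28.1 and 21.6 TPM under the label, so its groups overlapped. INSIG1, the sterol-sensing retention factor and itself a known SREBP target, had 14.9 and 22.6 TPM in the controls, against 31.98 and 15.96 TPM under the label. Its spread within each group was larger than the difference between them.

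The 4 genes of fatty acid synthesis were not called. ACLY had 138 and 132 TPM in the controls, against 156 and 138 TPM under the knockout label. ACACA, the acetyl-CoA carboxylase, stood at 23.0 and 26.6 TPM and at 24.7 and 20.6 TPM, and FASN, the fatty acid synthase, at 36.5 and 36.3 TPM and at 36.2 and 27.1 TPM. For ACLY and ACACA the groups overlapped. ACSS2, which makes acetyl-CoA from acetate, had a log2 fold change of 0.48 (SE 0.12, limma adjusted P = 0.0812). LPIN1, the phosphatidate phosphatase of glycerolipid synthesis, had a log2 fold change of 0.21 (SE 0.16, limma adjusted P = 0.416).

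Of the 6 calls, those of SCD, FADS1, FADS2 and TM7SF2 held under each other scaling, unit, pseudocount, filter and fit tried and without each library in turn. DHCR7 fell to -0.55, under the fold change threshold, without labelled replicate 1. Adjusted P was above 0.05 for all 5 lower members when either labelled library was left out, from 0.115 for SCD to 0.193 for DHCR7 (limma). Without a filter on low values it lay between 0.0811 for FADS2 and 0.343 for FADS1, and without control replicate 1 it was 0.0602 for TM7SF2, 0.0644 for DHCR7 and 0.0665 for FADS1.

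The overexpression comparison set the 6 libraries labelled U11 overexpression against 2 controls. The 6 libraries were fitted as a single group, so differences between line labels counted as spread within it. No member was called, against 1.93% of the 15768 genes tested (limma), and no member had an unadjusted P under 0.05, against 6% of all genes. The groups overlapped for every member, where 9.87% of all genes were separated. Of the 32 members, 21 had a positive and 11 a negative log2 fold change, with a median of 0.05 for the members and -0.02 for all genes. SREBF1 ran from 35.9 to 53.5 TPM in the 6 libraries with a median of 42.7 TPM, and its controls stood at 39.1 and 31.8 TPM. SREBF2 ran from 55.3 to 68.8 TPM with a median of 63.6 TPM, and its controls stood at 60.9 and 56.2 TPM. FASN ran from 103 to 134 TPM with a median of 120.2 TPM, and its controls stood at 119.8 and 102 TPM. For SREBF1 and FASN, 1 control lay within the range of the 6 libraries and 1 below it, and for SREBF2 both lay within it. The lowest unadjusted P values of the members were 0.0642 for LPIN1 and 0.0740 for SREBF1 (limma).

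Each of the line labels was then compared with the same 2 controls in one fit of 4 groups. Since the comparisons share the controls, they are not independent. In line label 79 no member was called, against 7.95% of all genes (limma), 6 members had an unadjusted P under 0.05, against 24.1%, and 1 an adjusted P under 0.05, against 9.91%. In line label 86 the 1 member called was ELOVL6, against 3.6% of all genes. In line label 87 it was ELOVL6 again, against 5.13%. In each of line labels 86 and 87, SCD was the 1 member with an adjusted P under 0.05, against 1.96% and 3.68% of all genes. Of the 32 members, 17, 17 and 26 had a positive log2 fold change in line labels 79, 86 and 87, with medians of 0.02, 0.02 and 0.14 beside -0.03, 0.01 and -0.01 for all genes. Both libraries lay above both controls for 10, 6 and 17 members, against 22.1%, 23.5% and 22.7% of all genes, and below them for 7, 4 and 2 members, against 30.7%, 19.9% and 25.5%. Line label 87 had the highest U11 TPM and the most members above both controls, with fold changes mostly under 1.5. The counts did not follow the U11 TPM over the line labels. Line label 79, whose U11 lay within the range of the controls, had 10 such members, and line label 86 had 6.

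ELOVL6 stood at 15.0 and 15.2 TPM in the controls, at 16.2 and 11.5 TPM in line label 79, at 28.0 and 28.1 TPM in line label 86 and at 25.5 and 23.3 TPM in line label 87. The libraries of line labels 86 and 87 were all above those of the controls and of line label 79. The log2 fold change was 0.85 (SE 0.15, limma adjusted P = 0.0526) in line label 86 and 0.65 (SE 0.15, limma adjusted P = 0.0805) in line label 87. In line label 79 it was -0.14 (SE 0.15, limma adjusted P = 0.653). Within the first library series (a prefix in the titles, with 1 control and 1 library of each line label) the log2 difference from the control was 0.86 in line label 86 and 0.72 in line label 87. Within the second series it was 0.84 and 0.58. In both line labels ELOVL6 stayed called under each other scaling, unit, pseudocount, filter and fit tried and without each library in turn.

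SCD stood at 61.3 and 60.6 TPM in the controls, at 56.6 and 57.8 TPM in line label 79, at 85.7 and 83.9 TPM in line label 86 and at 79.6 and 84.1 TPM in line label 87. The order of the line labels was that of ELOVL6, and libraries of a group differed little. The log2 fold change was 0.47 (SE 0.06, limma adjusted P = 0.0229) in line label 86 and 0.42 (SE 0.06, limma adjusted P = 0.0228) in line label 87, both under the fold change threshold. With all 12 libraries in one fit these adjusted P values were 0.0978 and 0.102, and without any 1 of the 8 libraries they ranged from 0.0511 to 0.135. FADS1 stood at 99.9 and 96.6 TPM in the controls, at 103 and 87.4 TPM in line label 79, at 102.2 and 122 TPM in line label 86 and at 119 and 122 TPM in line label 87. Its log2 fold change in line label 87 was 0.30 (SE 0.11, limma adjusted P = 0.245). FADS2 stood at 33.7 and 29.5 TPM in the controls, at 29.3 and 30.4 TPM in line label 79, at 28.5 and 25.7 TPM in line label 86 and at 41.7 and 31.2 TPM in line label 87. FADS2 passed no test in any line label. The 4 elongation and desaturation genes together stood at 1.23 and 1.28 of the controls in line labels 86 and 87 and at 0.953 in line label 79.

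SQLE stood at 45.7 and 45.3 TPM in the controls, at 55.9 and 55.6 TPM in line label 79, at 42.3 and 45.0 TPM in line label 86 and at 50.5 and 51.1 TPM in line label 87. In line label 79 the log2 fold change was 0.29 (SE 0.06, limma adjusted P = 0.0416), a small shift with close libraries. Without any 1 of the 8 libraries the adjusted P of this value ranged from 0.0607 to 0.167 (limma). FDFT1 had 65.2 and 63.3 TPM in the controls, against 74.5 and 103 TPM in line label 79, with a log2 fold change of 0.44 (SE 0.15, limma adjusted P = 0.141). LPIN1 had a log2 fold change of 0.42 (SE 0.12, limma adjusted P = 0.0816) in line label 79 and 0.51 (SE 0.12, limma adjusted P = 0.0821) in line label 87. HSD17B7, a reductase of sterol demethylation, had 0.37 (SE 0.09, limma adjusted P = 0.0799) in line label 87.

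**Figure D3:**
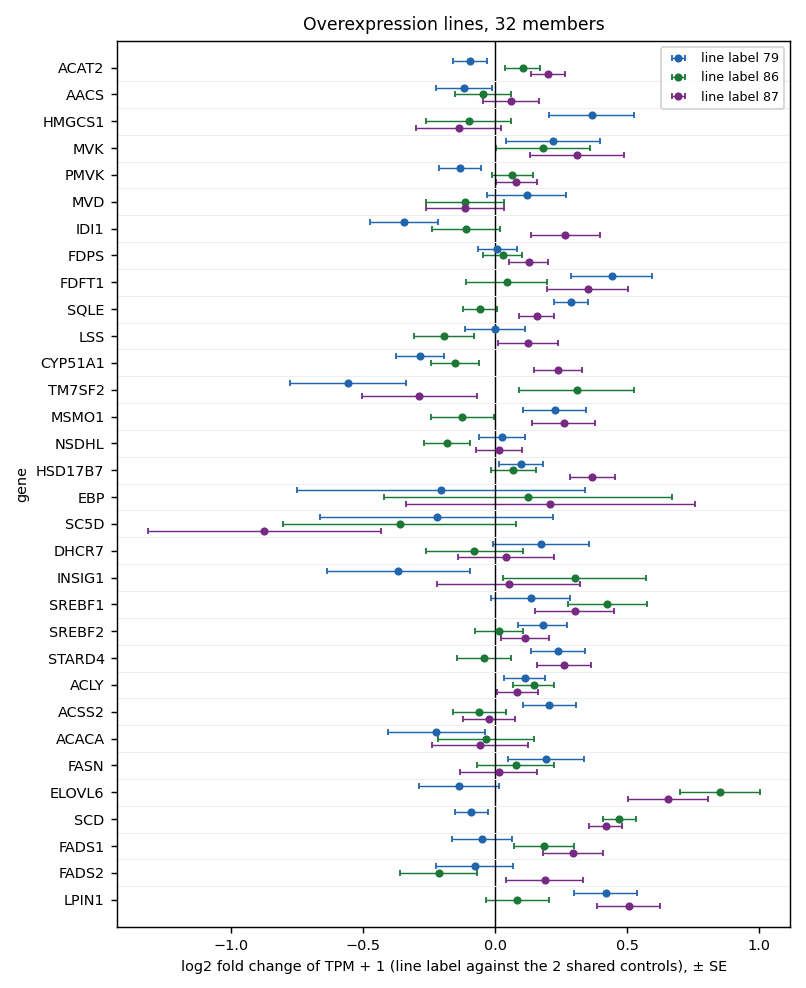
Log2 fold change of TPM + 1 (horizontal axis) of the 32 members (vertical axis) in line labels 79, 86 and 87 against the 2 shared controls, with bars of 1 standard error from the fit of 4 groups. ELOVL6 (0.85 and 0.65) and SCD (0.47 and 0.42) are higher in line labels 86 and 87 and near or below zero in line label 79, and EBP and SC5D have the widest bars.

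The difference between line labels was tested directly. The moderated F test over the 3 line labels gave an adjusted P under 0.05 for 5 of the 32 members, against 16% of all genes (limma). These were SCD (0.00417), ELOVL6 (0.0138), CYP51A1 (0.0221), SQLE (0.0327) and IDI1 (0.0485). With median ratio scaling 4 members passed, against 15.5% of all genes, and IDI1 did not (limma adjusted P = 0.0546). Between line labels 79 and 86, 4 members differed at an adjusted P under 0.05, against 13.5% of all genes. ELOVL6 was lower in line label 79 by a log2 difference of -0.99 (SE 0.15, limma adjusted P = 0.00946), and SCD by -0.56 (SE 0.06, limma adjusted P = 0.00364). SQLE was higher in line label 79 by 0.35 (SE 0.06, limma adjusted P = 0.0188). TM7SF2 was lower in line label 79 by -0.87 (SE 0.22, limma adjusted P = 0.0480), and its adjusted P was above 0.05 with median ratio scaling (0.0590), quantile normalization (0.0642), FPKM (0.0595), no trend (0.0520) and no filter (0.269). TM7SF2 stood at 3.21 and 2.46 TPM in line label 79, at 4.64 and 7.56 TPM in line label 86, at 3.35 and 3.86 TPM in line label 87 and at 4.27 and 4.97 TPM in the controls. Its adjusted P was above 0.05 without any 1 of the 8 libraries other than replicate 1 of line label 86 (0.0742 to 0.198, limma), and without replicate 3 of line label 86 the log2 difference was -0.57. The adjusted P of SQLE lay between 0.0530 and 0.0981 without any 1 of the 4 libraries of line labels 79 and 86, and that of ELOVL6 was 0.0543 and 0.0530 without replicates 1 and 3 of line label 86.

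Between line labels 79 and 87, 5 members differed at an adjusted P under 0.05, against 10.5% of all genes, and all 5 were lower in line label 79. ELOVL6 differed by -0.79 (SE 0.15, limma adjusted P = 0.0227) and SCD by -0.51 (SE 0.06, limma adjusted P = 0.00502). IDI1 stood at 31.8 and 35.8 TPM in line label 79, at 37.2 and 42.9 TPM in line label 86, at 48.2 and 56.3 TPM in line label 87 and at 39.8 and 46.8 TPM in the controls. Its log2 difference was -0.61 (SE 0.13, limma adjusted P = 0.0323). CYP51A1 stood at 34.6 and 34.5 TPM in line label 79, at 41.0 and 35.2 TPM in line label 86, at 50.3 and 49.9 TPM in line label 87 and at 40.8 and 43.8 TPM in the controls. The libraries of its line labels 79 and 87 lay on either side of the controls, and the log2 difference was -0.52 (SE 0.09, limma adjusted P = 0.01595). ACAT2 stood at 62.3 and 66.6 TPM in line label 79, at 72.9 and 75.3 TPM in line label 86, at 78.6 and 79.8 TPM in line label 87 and at 68.0 and 69.7 TPM in the controls. Its log2 difference was -0.29 (SE 0.07, limma adjusted P = 0.0373). The adjusted P of ELOVL6 was 0.117 and 0.0818 without replicates 1 and 3 of line label 87 (limma). Without any 1 of the 8 libraries, the adjusted P of ACAT2 lay between 0.0630 and 0.184 (limma). Without any 1 of the 4 libraries of line labels 79 and 87, that of IDI1 lay between 0.0653 and 0.161 and that of CYP51A1 between 0.0812 and 0.0841.

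Between line labels 86 and 87 no member had an adjusted P under 0.05 (limma), where 6.41% of all genes did. For SCD the log2 difference was 0.05 (SE 0.06) and for ELOVL6 0.20 (SE 0.15), and 10 members had an unadjusted P under 0.05, against 20.5% of all genes. TM7SF2 was the 1 member past the unadjusted P and the fold change, against 6.46% of all genes, with a log2 difference of 0.60 (SE 0.22, limma adjusted P = 0.191). It was not called without replicate 3 of line label 86 (0.30) or either library of line label 87 (0.52 and 0.68), nor with median ratio scaling (0.58).

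Some members varied between libraries of 1 group or with the library series. EBP, the sterol isomerase, ran from 52.2 to 61.2 TPM in the first series and from 21.7 to 36.9 TPM in the second, over controls and line labels alike. DHCR7 ran from 60.5 to 78.1 TPM and from 52.0 to 59.0 TPM, and AACS, which activates acetoacetate, from 24.9 to 28.4 TPM and from 22.0 to 24.8 TPM. These 3 were the members whose values in the 2 series did not overlap, and the share of all genes that did so was not counted. For AACS the nearest values of the 2 series were 24.88 and 24.84 TPM. In SC5D, the sterol desaturase, the 2 libraries of 1 line label differed by up to 2.50 times, and in INSIG1 by up to 1.68 times. INSIG1 stood at 34.3 and 20.4 TPM in line label 86, at 16.1 and 16.5 TPM in line label 79, at 22.2 and 22.0 TPM in line label 87 and at 17.1 and 26.5 TPM in the controls. It differed between line labels 79 and 86 by -0.67 (SE 0.27, limma adjusted P = 0.172), and by -0.31 without the higher library of line label 86. That difference was past the unadjusted P and fold change thresholds with all libraries, and not without either library of line label 79 (-0.65 and -0.68) or of line label 87 (-0.67 each).

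Whether members differed in their response between the comparisons was tested in one fit of all 12 libraries, as the log2 change under the knockout label minus the mean change over the 3 line labels. By the unadjusted P and fold change, 8 of the 32 members differed, against 13.5% of the 16404 genes tested (limma). At an adjusted P under 0.05 there were 5, against 11.9%, with 4 lower and 1 higher. With median ratio scaling there were 7, all lower, against 13.5%, namely these 4 with SQLE, TM7SF2 and DHCR7. The difference was -1.56 (SE 0.16, limma adjusted P = 0.000543) for SCD, whose log2 change was -1.29 in one comparison and 0.27 in the other. It was -0.89 (SE 0.18, limma adjusted P = 0.0136) for FADS1 and -0.86 (SE 0.17, limma adjusted P = 0.0136) for FADS2. For SREBF1 it was -0.76 (SE 0.20, limma adjusted P = 0.0400), from -0.47 under the knockout label and 0.29 over the line labels. For IDI1 it was 0.62 (SE 0.17, limma adjusted P = 0.0494), and 0.51 (limma adjusted P = 0.0655) with median ratio scaling. IDI1 was not called there, nor without knockout control replicate 1 (0.50), labelled knockout replicate 1 (0.58) or overexpression control replicate 2 (0.51). TM7SF2 (-0.72), DHCR7 (-0.67) and STARD4 (0.75) passed the unadjusted P and the fold change, with adjusted P values of 0.112, 0.0758 and 0.139 (limma). STARD4 was not called without knockout control replicate 1 (0.34), labelled knockout replicate 1 (0.60), overexpression control replicate 1 (0.66) or replicate 1 of line label 86 (0.71). TM7SF2 was not called without knockout control replicate 1 (-0.66), labelled knockout replicate 2 (-0.60) or overexpression control replicate 1 (-0.63), and DHCR7 not without overexpression control replicate 2 (-0.49). ELOVL6, with positive changes in both comparisons, gave 0.19 (SE 0.28, limma adjusted P = 0.723).

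Related genes outside the list were counted in 6 further groups. Of 14 regulators of SREBPs and of the oxysterol receptors, 1 was called under the knockout label, against 11.8% of all genes. NR1H2, an oxysterol receptor that induces sterol export, had 14.7 ± 2.21 TPM in the controls and 25.1 ± 2.54 TPM under the label (log2 fold change 0.74, SE 0.15, limma adjusted P = 0.0534). Its paralogue NR1H3 was called in line label 79, at 7.37 ± 0.125 TPM in the controls and 3.65 ± 0.219 TPM in that line label (-0.85, SE 0.15, limma adjusted P = 0.0197). Of all genes, 3.6% and 5.13% were called in line labels 86 and 87. Neither SREBP regulators nor the 12 tested of 14 other sterol and isoprenoid enzymes had a call there. Among the latter, NUS1, a subunit of the dolichol-making transferase, was the 1 called under the knockout label, also against 11.8% (0.64, SE 0.15, limma adjusted P = 0.0744), and was not called with median ratio scaling.

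Of 17 genes of sterol uptake, transport, storage and export, 14 passed the filter for the knockout comparison, with 2 called higher, against 8.61% of all genes. These were GRAMD1B, which moves plasma membrane cholesterol inward (0.91, SE 0.11, limma adjusted P = 0.0225), and NPC1, the lysosomal cholesterol exporter (0.66, SE 0.18, limma adjusted P = 0.0970). NPC1 was not called with median ratio scaling. GRAMD1B was called in every line label. It had 3.05 ± 0.856 TPM in the controls, 57.3 ± 16.8 TPM in line label 79, 1.09 ± 0.0997 TPM in line label 86 and 8.99 ± 0.743 TPM in line label 87. The log2 fold changes were 3.83 (SE 0.23, limma adjusted P = 0.000462), -0.94 (SE 0.23, limma adjusted P = 0.127) and 1.32 (SE 0.23, limma adjusted P = 0.0352). MYLIP, a ligase that promotes the breakdown of lipoprotein receptors, was called lower in line label 79 (-0.62, SE 0.15, limma adjusted P = 0.0579).

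Of 22 further genes of fatty acid supply, elongation and desaturation, 21 were tested, and 2 were called higher and 2 lower under the knockout label, against 11.8% of all genes called in either direction. ELOVL4, an elongase of very long fatty acids, rose from 1.96 ± 0.206 to 6.94 ± 0.0639 TPM (1.42, SE 0.13, limma adjusted P = 0.0131), and HACD1, a dehydratase of the elongation cycle, from 11.1 ± 0.509 to 18.9 ± 3.09 TPM (0.70, SE 0.15, limma adjusted P = 0.0574). ACSL5, which activates fatty acids, fell from 3.29 ± 0.230 to 0.720 ± 0.257 TPM (-1.33, SE 0.16, limma adjusted P = 0.0217), and HACD2, another dehydratase, from 18.8 ± 5.82 to 8.74 ± 0.786 TPM (-0.99, SE 0.23, limma adjusted P = 0.0686). In the overexpression comparison 3 of the 21 were called, against 1.93% of all genes, all lower, at adjusted P values from 0.147 to 0.831 (limma). They were HACD1 (-1.03), ACSL5 (-0.89) and ELOVL7 (-0.79), the last an elongase of saturated fatty acids. ELOVL7 was called lower in each of the line labels, with log2 fold changes of -0.68, -0.88 and -0.81 and limma adjusted P values of 0.0487, 0.0574 and 0.0506 in line labels 79, 86 and 87. ACSL5 was lower under the knockout label and also in line labels 79 (-1.63) and 87 (-0.74). HACD1 was higher under the knockout label and lower in line labels 79 (-1.78) and 86 (-0.92). FADS3, a relative of the desaturases, was called lower in line label 79 (-0.60, SE 0.17, limma adjusted P = 0.0815) and not with median ratio scaling.

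In glycerolipid synthesis, 1 of 15 genes tested was called under the knockout label, against 11.8% of all genes. GPAT3, an acyltransferase of the first step, rose from 1.55 ± 0.218 to 3.44 ± 0.333 TPM (0.80, SE 0.14, limma adjusted P = 0.0424), while it was called lower in line labels 79 (-0.74) and 87 (-0.78). AGPAT5, an acyltransferase of the next step, was called higher in the overexpression comparison (0.77, SE 0.29, limma adjusted P = 0.733) and in line label 86 (1.05, SE 0.36, limma adjusted P = 0.278). DGAT2, which makes triglyceride, was called higher in line label 87 (0.63, SE 0.20, limma adjusted P = 0.156). Of 18 genes of fatty acid oxidation, ECI1, an isomerase needed for unsaturated fatty acids, fell under the knockout label from 22.0 ± 0.981 to 14.2 ± 0.673 TPM (-0.60, SE 0.11, limma adjusted P = 0.0434). Its relative ECI2 rose in line label 87 from 75.9 ± 4.33 to 135 ± 7.56 TPM (0.82, SE 0.08, limma adjusted P = 0.00434), and these were the 1 call of the oxidation genes in each of those comparisons, against 11.8% and 5.13% of all genes. The list medians under the knockout label ran from 0.07 to 0.18 over these 6 groups, beside 0.11 for all genes.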

How the data were processed

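Genes were followed in 12 libraries of T24 cells, grouped by the treatment and line label in the sample labels. The members and the other gene lists were chosen with earlier results of these data known. Per the study's methods the authors aligned reads with Hisat2 to hg38 and quantified genes with Stringtie. The methods name rRNA depletion and the labels polyA RNA. The deposited tables give coverage (a signal per base), FPKM (fragments per transcript length and sequencing depth) and TPM (abundance per length, with a fixed total in each library), and the authors did not pool libraries. The tables used here give no read counts, so the study's DESeq2 was not used, and errors rest on the spread of the libraries. Depth was read from the ratio of coverage to FPKM.

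From the deposited TPM, log2(TPM + 1) was fitted over all genes that reached 1 TPM in at least 2 libraries, with limma 3.58.1 in R 4.3.3 (lmFit, eBayes with a mean-variance trend). A call needed P under 0.05 before adjustment and a 1.5-fold change, the study's thresholds, and Benjamini-Hochberg adjustment ran over all genes tested. The fit was tested on simulated data. Alternatives were median ratio scaling, quantile normalization, FPKM, a pseudocount of 0.1, other filters, no trend, all 12 libraries in one fit, other thresholds, a replicate block, line label means and leaving out each library.

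Members called in a comparison, differing between line labels at an adjusted P under 0.05, or standing for a role (transcription factors, INSIG1, first and last enzymes of a branch) are given by library. FDPS, MSMO1, MVD, ACSS2, LPIN1, EBP, SC5D, AACS and HSD17B7 were named after their values were seen. From each other list, the called genes with the largest changes are named, up to 4 per comparison. Python 3.11.15, numpy 2.4.6, pandas 2.3.3 and matplotlib 3.10.9 were used.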

Additional observations from a re-analysis of the deposited data

Results flagged for a closer look

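Among the 6 overexpression libraries, 2 of the 32 members had a library far from the others by Dixon's test at 95%, which flags about 1 in 20 groups by chance. INSIG1 stood at 34.3 TPM in replicate 1 of line label 86, where the next library had 22.2 TPM, and FADS2 stood at 41.7 TPM in replicate 1 of line label 87, where the next had 31.2 TPM.

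Line labels differed at a limma adjusted P under 0.05 in 9 values. Line label 79 was below line label 86 by log2 differences of -0.56 for SCD, -0.87 for TM7SF2 and -0.99 for ELOVL6, and above it by 0.35 for SQLE. The adjusted P of TM7SF2 (0.0480) was above 0.05 with median ratio scaling (0.0590). It was below line label 87 by -0.52 for CYP51A1, -0.61 for IDI1, -0.51 for SCD, -0.29 for ACAT2 and -0.79 for ELOVL6.

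The response under the knockout label differed from that over the overexpression line labels at a limma adjusted P under 0.05 for 5 members, by -1.56 for SCD, -0.89 for FADS1, -0.86 for FADS2, -0.76 for SREBF1 and 0.62 for IDI1. The knockout and overexpression libraries differ in the share of TPM held by the most abundant genes, and the part of this in the differences was not tested.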

How the results depend on the processing

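Without 1 library each, the number of members called in the knockout comparison (6) ranged from 5 to 9. The overexpression count (0) ranged from 0 to 2, with 2 without replicate 3 of line label 79. That of line label 79 (0) ranged from 0 to 2, with 2 without its replicate 1. That of line label 86 (1) ranged from 1 to 3, with 2 without its replicate 1 and 3 without its replicate 3. That of line label 87 (1) ranged from 1 to 2, with 2 without its replicate 1 or either library of line label 79. The line label differences (5) ranged from 2 to 4, with 2 without any 1 library of line labels 79 and 87, and 3 without either control or replicate 3 of line label 86. The difference between the comparisons (8) ranged from 5 to 9, with 5 without knockout control replicate 1. Member medians without 1 library ranged from -0.086 to 0.0981 (knockout), 0.0417 to 0.1304 (overexpression), -0.0285 to 0.1207 (line label 79), -0.0394 to 0.0573 (line label 86) and 0.0701 to 0.1665 (line label 87). A lone library left in a group was assumed to vary like the others. The count in line label 79 was 1 with a pseudocount of 0.1 and 1 with an adjusted P and no fold change threshold. The counts in line labels 86 and 87 were 0 and 0 with an adjusted P and the fold change threshold. The line label differences numbered 2 without a filter and 3 without a trend. The member median in line label 79 (0.02) was 0.0534 with median ratio scaling. The cause of these shifts was not tested. Of 502 alternative values for 30 single-member results, 411 kept the call by the criterion that named the member, 91 lost it and 0 changed sign. Without a filter on low values, adjusted P was above 0.05 (limma) for ELOVL6 (0.0749 and 0.149 against line labels 86 and 87), CYP51A1 (0.0745), IDI1 (0.188) and ACAT2 (0.0564) between line labels, and for SREBF1 (0.133), FADS1 (0.0547) and IDI1 (0.148) between the comparisons. With quantile normalization it was 0.0721 for ACAT2 and 0.0511 for IDI1 between line labels, and without a trend 0.0683 for ACAT2. That of ELOVL6 between line labels 79 and 87 was 0.0520 with all 12 libraries in one fit, that of SQLE in line label 79 was 0.0683 without a trend, and that of IDI1 between the comparisons was 0.0611 without a trend.

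Same-numbered knockout libraries did not deviate together (r = 0.024 for 1 pair of groups), and libraries of the same series in the overexpression comparison did so weakly (r from 0.07 to 0.15 over 6 pairs of groups), so the numbers were not taken as pairing. With a replicate block 6 members were called in the knockout comparison, 0 in the overexpression comparison, 0, 1 and 1 in line labels 79, 86 and 87, and 7 members differed between line labels. With that block no member called lower under the knockout label had an adjusted P under 0.05 (0.0581 for SCD to 0.109 for DHCR7, limma), and TM7SF2 had 0.0544 between line labels 79 and 86. With no counts in the tables, no counting error could be set on single values.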
